A study of Homo sapiens with 9 samples.

Results

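The SMADs and the feedback inhibitors of TGF-β signalling were examined as a set of 10 genes, SMAD2, SMAD3, SMAD4, SMAD6, SMAD7, SKI, SKIL, SMURF1, SMURF2 and PMEPA1. They were chosen by gene symbol for their place in the pathway, with earlier results of these data known. All 10 were found among the 20777 genes of the count table. RNA was sequenced from LX-2, an immortalised human hepatic stellate cell line grown in medium with fetal bovine serum and labelled wild type. The control group carried no treatment label, the TGF-β group was treated with TGF-β, and the TGF-β + uridine group was treated with TGF-β and uridine. Both treatments are placed on day 1 by the labels, and the study's methods describe TGF-β first and then a change to medium with uridine. Each of the 3 groups held 3 libraries, and no source says whether these were separate cultures, so that p-values measure the spread between libraries only. No group received uridine alone.

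TGF-β binds a receptor complex that phosphorylates SMAD2 and SMAD3. These join SMAD4, enter the nucleus and switch target genes on or off. The pathway also drives its own brakes: SMAD6 and SMAD7 act at the receptors, SMURF1 and SMURF2 are ubiquitin ligases that mark SMADs and receptors for degradation, SKI and SKIL are corepressors of SMAD complexes in the nucleus, and PMEPA1 is a membrane protein that holds SMAD2 and SMAD3 away from the receptor. In stellate cells this pathway is known for driving the change to matrix-producing myofibroblasts. mRNA levels do not report the phosphorylation of SMADs.

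The libraries held 40539751 to 41467124 counts. The labelled cell type was checked on 13 stellate cell and fibroblast markers, of which 12 were listed in the count table and 10 passed the filter on low counts. VIM, an intermediate filament gene, stood at 1006 to 1153 CPM (counts scaled to library size with TMM factors) in the control libraries and THY1 at 205 to 308 CPM. COL1A2 was at 0 in all control and TGF-β + uridine libraries and at no more than 1 count in the TGF-β group, and HAND2 never exceeded 1 count, while LRAT was not analysed here. COL1A2 and HAND2 are known as stellate cell genes, and their near absence goes against the label, as do the keratin levels given next. None of 5 hepatocyte markers passed the filter, and their summed level was at most 0.366 CPM. The summed level of 5 epithelial markers, mainly the keratins KRT8 and KRT18, was 5677 to 11423 CPM in the control, 7459 to 7930 CPM in the TGF-β and 5875 to 7693 CPM in the TGF-β + uridine group. The other epithelial markers were low, with control means of 0.0508 CPM for EPCAM, 0.570 CPM for CDH1 and 1.14 CPM for KRT19. The list as a whole therefore gives no epithelial profile. The part of the keratin level in the results below was not tested.

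Some libraries stood apart. The slope of log2 CPM on the GC content of genes ran from 0.0408 in control replicate 3 to 0.138 in control replicate 1 (log2 units per percentage point of GC), which were the lowest and the highest of the 9 libraries. In TGF-β + uridine replicate 3, 2.8% of the tested genes lay more than 1.5 log2 units above both other libraries of its group, against 0.0598% and 0.105% in replicates 1 and 2. In control replicate 1, 8.24% of the genes lay that far below both other control libraries. For some of the 10 members, values are also given without 1 or more of these libraries. Values of the other named genes and of the lists are given with all 9 libraries only.

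Sequences upstream of the transcription start sites are shown for PMEPA1 and SMAD7, the members that rose with TGF-β and uridine against control, and for SMAD6, the other inhibitory SMAD, whose level differed little between the groups. Each is the 250 bases before a RefSeq start (GRCh38.p14), on the gene's strand, with capitals at matches to GTCTAGAC (the palindromic SMAD-binding element), CAGACA or CAGAC, on either strand. PMEPA1 has 4 starts in the table and SMAD7 has 3, and the window shown for each was picked because it held such matches.

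PMEPA1 window, chr20:57710578-57710827, minus strand: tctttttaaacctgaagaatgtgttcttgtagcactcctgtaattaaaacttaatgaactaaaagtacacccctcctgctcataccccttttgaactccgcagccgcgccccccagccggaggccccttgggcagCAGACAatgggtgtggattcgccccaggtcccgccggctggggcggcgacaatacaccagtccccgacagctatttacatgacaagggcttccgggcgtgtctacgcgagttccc
SMAD7 window, chr18:48950966-48951215, minus strand: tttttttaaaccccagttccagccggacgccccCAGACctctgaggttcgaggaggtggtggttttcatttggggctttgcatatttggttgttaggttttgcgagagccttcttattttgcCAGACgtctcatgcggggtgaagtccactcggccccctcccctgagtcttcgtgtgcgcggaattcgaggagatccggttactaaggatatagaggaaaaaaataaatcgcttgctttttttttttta
SMAD6 window, chr15:66701986-66702235, plus strand: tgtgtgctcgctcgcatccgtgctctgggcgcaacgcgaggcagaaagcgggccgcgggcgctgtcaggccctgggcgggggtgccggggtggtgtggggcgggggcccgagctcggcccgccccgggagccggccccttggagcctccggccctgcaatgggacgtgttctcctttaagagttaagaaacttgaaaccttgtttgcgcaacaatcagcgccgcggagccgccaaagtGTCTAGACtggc

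The RefSeq promoter table held 9 of the 10 genes with 19 start sites. The palindrome GTCTAGAC was found in the SMAD6 window, 12 to 5 bases before the start, and in no other window of the 9 genes. Of 35116 windows of the same length in the table, 0.182% hold it. The letters CAGACA, which contain CAGAC, lay 115 to 110 bases before 1 of the 4 PMEPA1 starts and 134 to 129 bases before 1 of the SMAD3 starts, and 13.6% of all windows hold them. CAGAC alone occurs in 38% of all windows, and windows of SMAD3, SMAD7, SKIL, SMURF1 and PMEPA1 hold it. The AP-1 letters TGANTCA were found at 1 SMAD3 start, against 6.57% of all windows. These matches describe letters only, and the counts per gene do not show which start site was used.

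Levels between genes were compared as FPKM, the deposited value per length of the gene model and per library total. In the control group PMEPA1 was highest at 7.12 ± 1.36 FPKM (mean ± SD, n = 3), followed by SKI at 6.30 ± 0.464 and SMURF1 at 5.75 ± 1.08, and the ranges of these neighbours overlapped. SMAD3 followed at 3.93 ± 0.538 FPKM, below every SMURF1 value and above every SMAD6 value. SMAD6 at 1.69 ± 0.112, SMAD4 at 1.58 ± 0.922 and SMAD7 at 1.26 ± 0.369 FPKM overlapped with their neighbours in this order. The lowest levels were those of SMURF2 at 0.607 ± 0.489, SMAD2 at 0.564 ± 0.275 and SKIL at 0.246 ± 0.138 FPKM. The SMAD2 level depends on its gene model, which has a deposited length of 42081 bases against 3698 to 11061 for the other members, because annotated SMAD2 transcripts run to 34526 bases. In the TGF-β group SMAD7 moved from rank 7 to rank 5 of the 10 genes, and PMEPA1 stayed at rank 1 with 42.3 ± 1.59 FPKM.

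**Figure D1:**
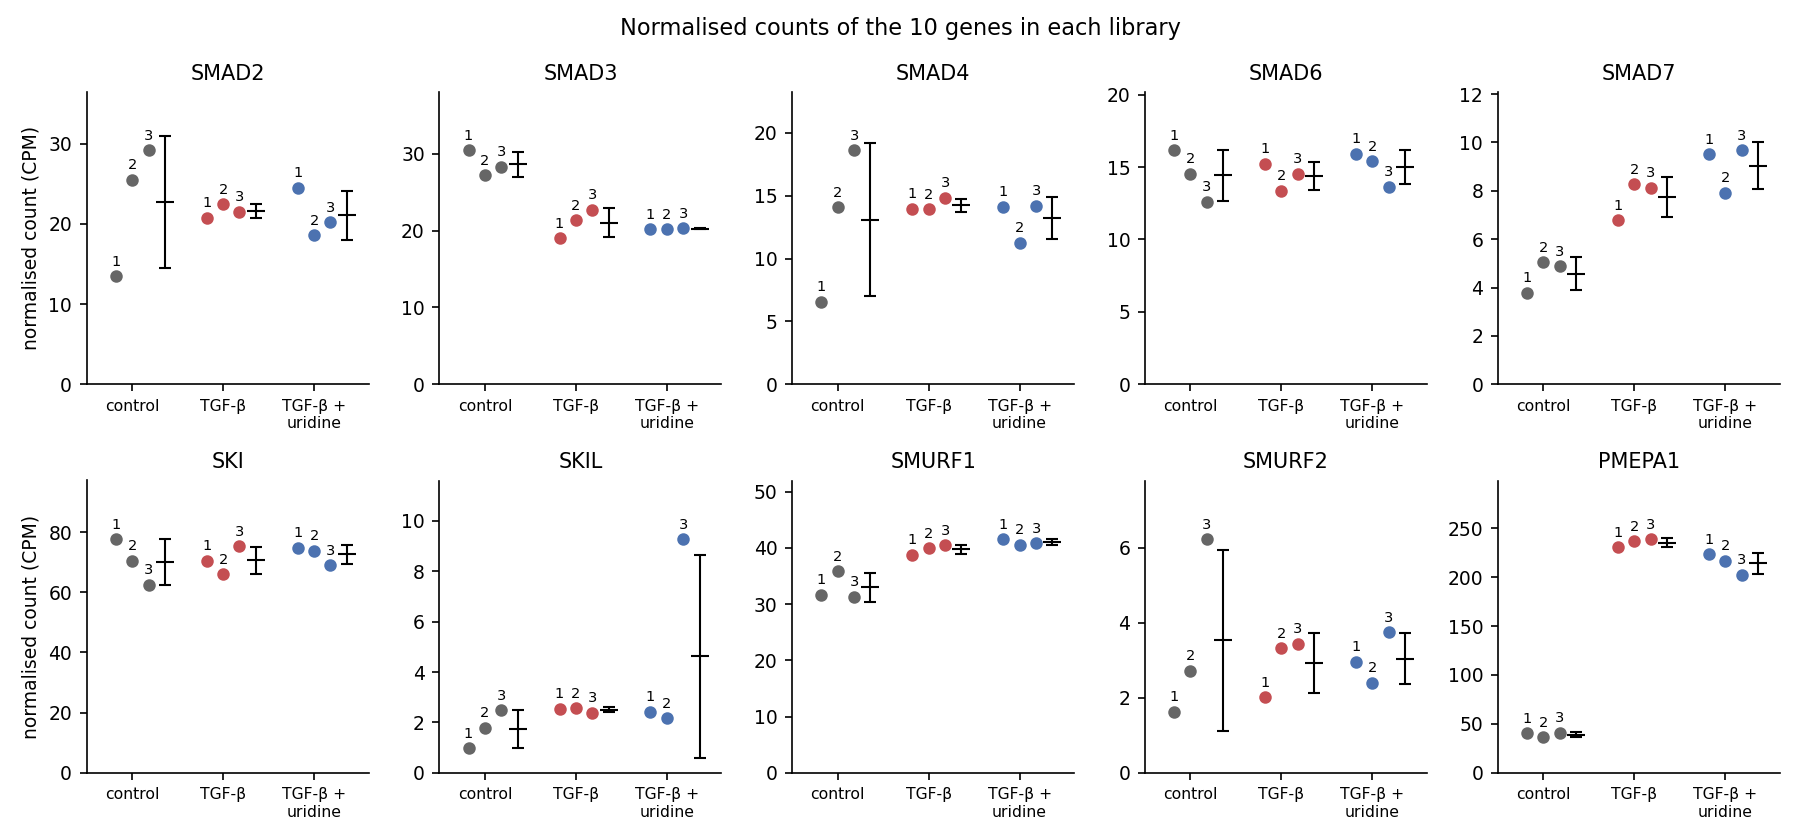
Normalised counts of the 10 genes in the 9 libraries, 1 panel per gene. The y axis is CPM after TMM scaling on a linear scale from 0, numbers at the points are replicates, and the bar beside each group is the mean ± SD. PMEPA1 and SMAD7 are higher and SMAD3 lower in every treated library than in every control library, and SKIL stands apart in TGF-β + uridine replicate 3.

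The first comparison asked what TGF-β did to the mRNA of its own SMADs and inhibitors. Of the 10 members 1 rose, PMEPA1, and none fell at an adjusted p under 0.05 (edgeR quasi-likelihood test, Benjamini-Hochberg over 13384 tested genes). Among all tested genes, 2.42% rose and 0.964% fell. At an unadjusted p under 0.05 there were 4 members, PMEPA1, SMAD7, SMAD3 and SMURF1, against 12.1% of all genes, and in the same 4 genes the TGF-β and control libraries did not overlap, against 17.7% of all genes. The median log2 fold change of the members was 0.06, beside -0.05 for all tested genes.

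PMEPA1 (ENSG00000124225, chr20:57648392-57711536, minus strand, GRCh38) was measured at 40.1, 36.1 and 41.1 CPM in the control libraries and at 230.5, 236.6 and 239.0 CPM in the TGF-β libraries. In the TGF-β + uridine group it stood at 223.1, 216.9 and 202.3 CPM. Every treated library was far above every control library. PMEPA1 rose 6.02-fold with TGF-β (log2 fold change 2.59, SE 0.09, adjusted p = 3.5e-06 by edgeR) and had the rank 2 by p-value of all tested genes. It also rose with TGF-β and uridine against control, 5.48-fold (log2 fold change 2.45, SE 0.09, adjusted p = 5.6e-06 by edgeR). Both calls held in all 22 alternative analyses, with log2 fold changes of 2.43 to 2.63 for TGF-β. With control replicate 1 and TGF-β + uridine replicate 3 both left out, the values were 2.61 and 2.51. In bulk RNA, a change in the share of cells that express a gene and a change in its RNA per cell cannot be told apart.

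NKILA, an antisense RNA gene, overlaps PMEPA1 on the opposite strand, and the sources used here do not say whether counting used strand. NKILA had 63 to 91 counts in the control group, 291 to 347 in the TGF-β group and 121 to 161 in the TGF-β + uridine group, far below the 1355 to 9811 counts of PMEPA1. NKILA rose with TGF-β (log2 fold change 2.12, adjusted p = 0.0016 by edgeR). Its log2 fold change for uridine added to TGF-β was -1.23 (95% interval -1.76 to -0.70, adjusted p = 0.17 by edgeR), while that of PMEPA1 was -0.14 (95% interval -0.34 to 0.06).

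SMAD7 (ENSG00000101665, chr18:48919853-48952052, minus strand), the inhibitory SMAD that recruits SMURF ligases to the receptor, had 3.79, 5.05 and 4.89 CPM in the control group. The TGF-β libraries held 6.79, 8.28 and 8.14 CPM and the TGF-β + uridine libraries 9.51, 7.92 and 9.67 CPM. No treated library overlapped with a control library, whereas the treated groups overlapped with each other. The log2 fold change with TGF-β was 0.76 (SE 0.19, 1.69-fold), which missed the threshold at an adjusted p of 0.072 (edgeR). It rose with TGF-β and uridine against control by 0.98 (SE 0.19, 1.97-fold, adjusted p = 0.018 by edgeR). That call was lost in 3 of the 9 analyses that left out 1 library, without control replicate 2 (adjusted p = 0.063), TGF-β + uridine replicate 1 (adjusted p = 0.091) or TGF-β + uridine replicate 3 (adjusted p = 0.080), and the log2 fold change then ranged from 0.84 to 1.06 over the 9. Over all 22 alternatives the call held in 17, and it was also lost with only the 2 groups compared (adjusted p = 0.12 by edgeR) and by limma on log2(FPKM + 1) of all listed genes (adjusted p = 0.068). DESeq2 called SMAD7 in the TGF-β comparison as well (log2 fold change 0.75, adjusted p = 0.0047).

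SMAD6 (ENSG00000137834, chr15:66702228-66782848, plus strand), the inhibitory SMAD linked mainly to BMP receptors, had 16.1, 14.6 and 12.6 CPM in the control group. It held 15.2, 13.4 and 14.5 CPM with TGF-β, and 15.9, 15.4 and 13.6 CPM with TGF-β and uridine. All groups overlapped. Its log2 fold change with TGF-β was -0.01, with a 95% interval of -0.33 to 0.32, and with both agents 0.06 (-0.27 to 0.38). The difference between SMAD7 and SMAD6 was read within libraries from the SMAD7/SMAD6 FPKM ratio, chosen after the values had been seen. The ratio was 0.741 ± 0.181 in the control, 1.24 ± 0.202 in the TGF-β and 1.39 ± 0.224 in the TGF-β + uridine group (n = 3 each). The ratio is a description with no test.

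SMAD3 (ENSG00000166949, chr15:67063763-67195195, plus strand), a SMAD activated by the TGF-β receptor, had 30.4, 27.2 and 28.3 CPM in the control libraries. The TGF-β libraries held 19.0, 21.3 and 22.7 CPM, and the TGF-β + uridine libraries 20.2, 20.2 and 20.3 CPM. Every treated library lay below every control library. With TGF-β the log2 fold change was -0.45 (SE 0.11, 0.734-fold), not called at an adjusted p of 0.078 (edgeR). DESeq2 called it at -0.45 (adjusted p = 0.030), and edgeR did without control replicate 1 (log2 fold change -0.41, adjusted p = 0.041). With TGF-β and uridine against control it fell by 0.50 on the log2 scale (SE 0.11, 0.707-fold, adjusted p = 0.038 by edgeR). This call held in only 1 of the 9 analyses that left out a library, without control replicate 1 (adjusted p = 0.014). It was lost at an adjusted p of 0.057 to 0.158 without control replicates 2 or 3, without any 1 of the TGF-β libraries and without any 1 of the TGF-β + uridine libraries. The log2 fold change itself stayed between -0.54 and -0.48. The call was also lost with the replicate number as a block (adjusted p = 0.11), with no filter on low counts (0.11), with only the 2 groups compared (0.16, all by edgeR) and in the 3 limma analyses of FPKM (0.066 to 0.116).

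SMAD2 (ENSG00000175387, chr18:47808957-47931146, minus strand), the other SMAD activated by this receptor, had 13.4, 25.5 and 29.2 CPM in the control group, 20.8, 22.5 and 21.5 CPM with TGF-β, and 24.5, 18.6 and 20.2 CPM with both agents. Its log2 fold change with TGF-β was -0.07, with a 95% interval of -0.65 to 0.50. SMAD4 (ENSG00000141646, chr18:51028394-51085045, plus strand), the common partner, had 6.58, 14.1 and 18.6 CPM in the control group, 14.0, 13.9 and 14.9 CPM with TGF-β, and 14.1, 11.3 and 14.2 CPM with both agents. For both genes the control libraries spanned the treated ones. Leaving out control replicate 1 moved the SMAD4 value with TGF-β from 0.12 to -0.21, so no direction can be given for SMAD4.

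**Figure D2:**
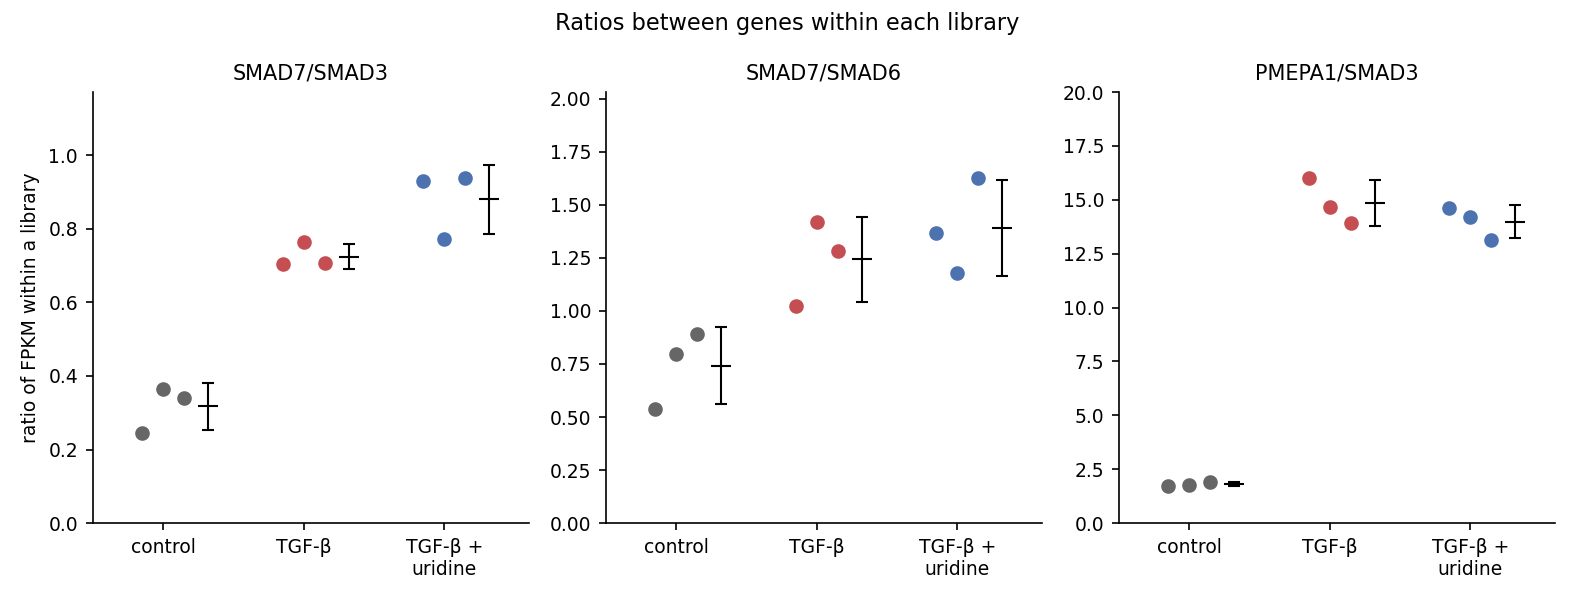
Ratios of FPKM between members within each library, by group, on linear axes from 0. Points are libraries and the bar beside each group is the mean ± SD (n = 3). SMAD7/SMAD3 is 0.246 to 0.366 in the control libraries and 0.703 to 0.937 in the 6 treated libraries.

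A ratio within a library does not depend on the library's total. The SMAD7/SMAD3 FPKM ratio, also chosen after the values had been seen, was 0.246, 0.366 and 0.340 in the control libraries. It was 0.703, 0.764 and 0.706 with TGF-β, and 0.929, 0.773 and 0.937 with TGF-β and uridine. With SMAD7 above and SMAD3 below the control in every treated library, the gap from the control follows from the choice of the pair, and the ratios are given as a description with no test. The mean ratio was 2.28-fold higher with TGF-β than in the control and 1.21-fold higher with uridine added, although the nearest treated libraries, 0.764 and 0.773, almost met. The PMEPA1/SMAD3 ratio was 1.81 ± 0.0985 in the control, 14.9 ± 1.06 in the TGF-β and 14.0 ± 0.75 in the TGF-β + uridine group, and the treated groups overlapped.

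Of the ubiquitin ligases, SMURF1 (ENSG00000198742, chr7:99027438-99144100, minus strand) had 31.7, 35.9 and 31.4 CPM in the control group, 38.8, 40.0 and 40.5 CPM with TGF-β, and 41.6, 40.6 and 40.8 CPM with both agents. All treated libraries lay above all control libraries, by a small margin. The log2 fold changes were 0.27 with TGF-β (SE 0.10, adjusted p = 0.24 by edgeR) and 0.31 with both agents (SE 0.10, adjusted p = 0.11 by edgeR), and neither was called. TRRAP overlaps SMURF1 on the opposite strand and its log2 fold change with TGF-β was -0.16 (95% interval -0.43 to 0.11).

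SMURF2 (ENSG00000108854, chr17:64542295-64662068, minus strand) was a low gene with 55 to 297 counts. It held 1.63, 2.71 and 6.23 CPM in the control group, 2.01, 3.32 and 3.43 CPM with TGF-β, and 2.95, 2.40 and 3.75 CPM with both agents. Control replicates 1 and 3 were the lowest and the highest of the 9 libraries. The log2 fold change with TGF-β was -0.28, with a 95% interval of -1.33 to 0.77, and it became 0.42 without control replicate 3. CEP95 overlaps SMURF2 on the opposite strand with 51 to 188 counts, a number like that of SMURF2. In the control libraries CEP95 had 51, 136 and 188 counts and SMURF2 55, 114 and 297, and without a stated strand setting their reads cannot be told apart where the genes overlap.

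Of the corepressors, SKI (ENSG00000157933, chr1:2228695-2310119, plus strand) had 77.8, 70.5 and 62.5 CPM in the control group, 70.5, 66.1 and 75.3 CPM with TGF-β, and 74.8, 73.9 and 69.1 CPM with both agents. The groups overlapped, and the 95% interval of the log2 fold change with TGF-β ran from -0.23 to 0.25. SKIL (ENSG00000136603, chr3:170357678-170396835, plus strand) had 33, 75 and 118 counts in the control libraries, or 0.978, 1.79 and 2.47 CPM. It held 2.54, 2.57 and 2.39 CPM with TGF-β, and 2.42, 2.17 and 9.28 CPM with both agents. The last value, from TGF-β + uridine replicate 3, rests on 411 counts, against 104 and 83 in replicates 1 and 2. SKIL's log2 fold change with both agents was 1.40 (SE 0.57, adjusted p = 0.24 by edgeR), and 0.39 without that library.

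The second comparison, TGF-β + uridine against control, shares its control libraries with the first. Of the 10 members 2 rose, PMEPA1 and SMAD7, and 1 fell, SMAD3, while 2.89% of all tested genes rose and 2.44% fell. At an unadjusted p under 0.05 there were 5 members, against 17.6% of all genes, with SMURF1 and SKIL added to the 3. The libraries did not overlap for 4 members, against 19.7% of all genes. The median log2 fold change was 0.05 for the members and -0.01 for all tested genes.

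**Figure D3:**
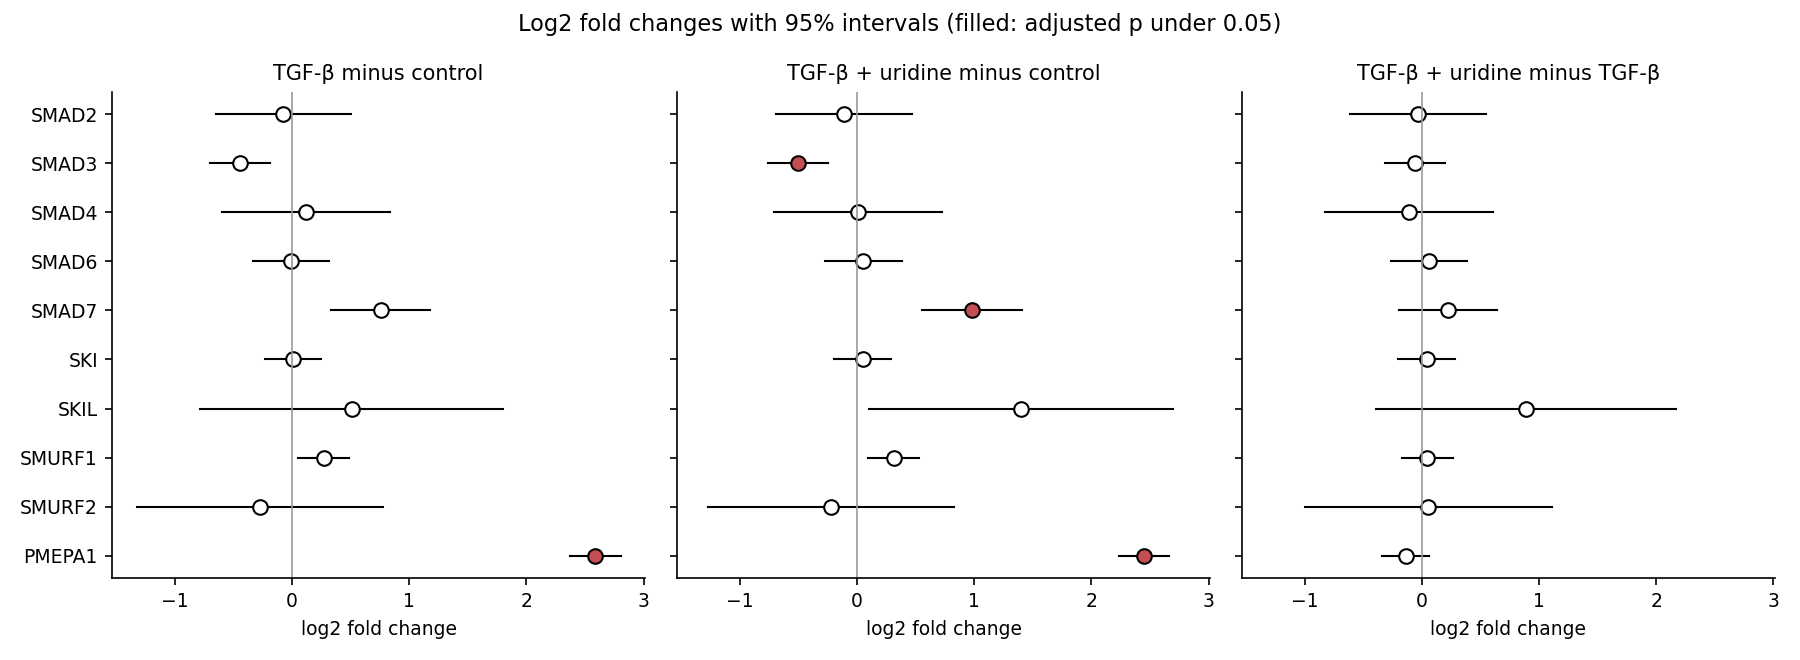
Log2 fold changes of the 10 genes in the 3 comparisons, with 95% intervals from the edgeR fit. Filled points have an adjusted p under 0.05 over 13384 genes. PMEPA1 is filled in both comparisons with control, SMAD7 and SMAD3 in the comparison of both agents with control, and no point is filled for uridine added to TGF-β.

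The third comparison asked what uridine added to TGF-β changed. None of the 10 members was called by edgeR, none had an unadjusted p under 0.05, and none was called by DESeq2 or in any of the other alternatives. Among all tested genes, 0% rose, 0.0448% fell and 8.79% had an unadjusted p under 0.05. The libraries did not overlap for 2 members, PMEPA1 and SMURF1, against 25.6% of all genes. PMEPA1 was lower in all 3 TGF-β + uridine libraries (202.3 to 223.1 CPM) than in the TGF-β libraries (230.5 to 239.0 CPM), a 0.91-fold difference with a 95% interval of 0.791 to 1.05 (adjusted p = 0.78 by edgeR, exact permutation p = 0.1).

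The intervals for uridine show how large a difference these libraries leave room for. For SMAD7 the fold was 1.17, with a 95% interval of 0.873 to 1.56. For SMAD3 it was 0.962 (0.806 to 1.15), for SMURF1 1.03 (0.887 to 1.20), for SKI 1.03 (0.869 to 1.22) and for SMAD6 1.04 (0.833 to 1.31). The low-GC members were less well bounded, SMAD2 at 0.976 (0.654 to 1.46), SMAD4 at 0.926 (0.564 to 1.52) and SMURF2 at 1.04 (0.502 to 2.15). SKIL had the widest interval, 1.85 (0.763 to 4.50), and its log2 fold change turned from 0.89 to -0.12 without TGF-β + uridine replicate 3. Against the control, the TGF-β + uridine group was 5.48-fold higher in PMEPA1.

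The spread between the control libraries differed with the base composition of the members. GC content of the longest transcript was 33.4% for SKIL, 39.3% for SMURF2, 40.2% for SMAD2 and 41.1% for SMAD4, and 50.4% to 60.0% for the other 6. Between control replicates 3 and 1, the 4 low-GC members differed by 2.17 to 3.82-fold and the other 6 by 0.781 to 1.29-fold. Tested genes at large moved the same way, with a median log2 difference of 1.73 for genes up to 40% GC and -0.79 for genes above 60%. In TGF-β + uridine replicate 3, SKIL lay 4.05-fold above the mean of replicates 1 and 2, beyond 97.6% of all tested genes, and SMURF2 1.40-fold. The other low-GC members did not stand out there, with SMAD4 at 1.12-fold and SMAD2 at 0.937-fold beside SMAD7 at 1.11-fold. NEAT1, a nuclear RNA, was at 120.3 CPM in that library and at 10.1 to 17.6 CPM in the other 8. The part of this library's RNA composition in the SKIL value was not tested.

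**Figure D4:**
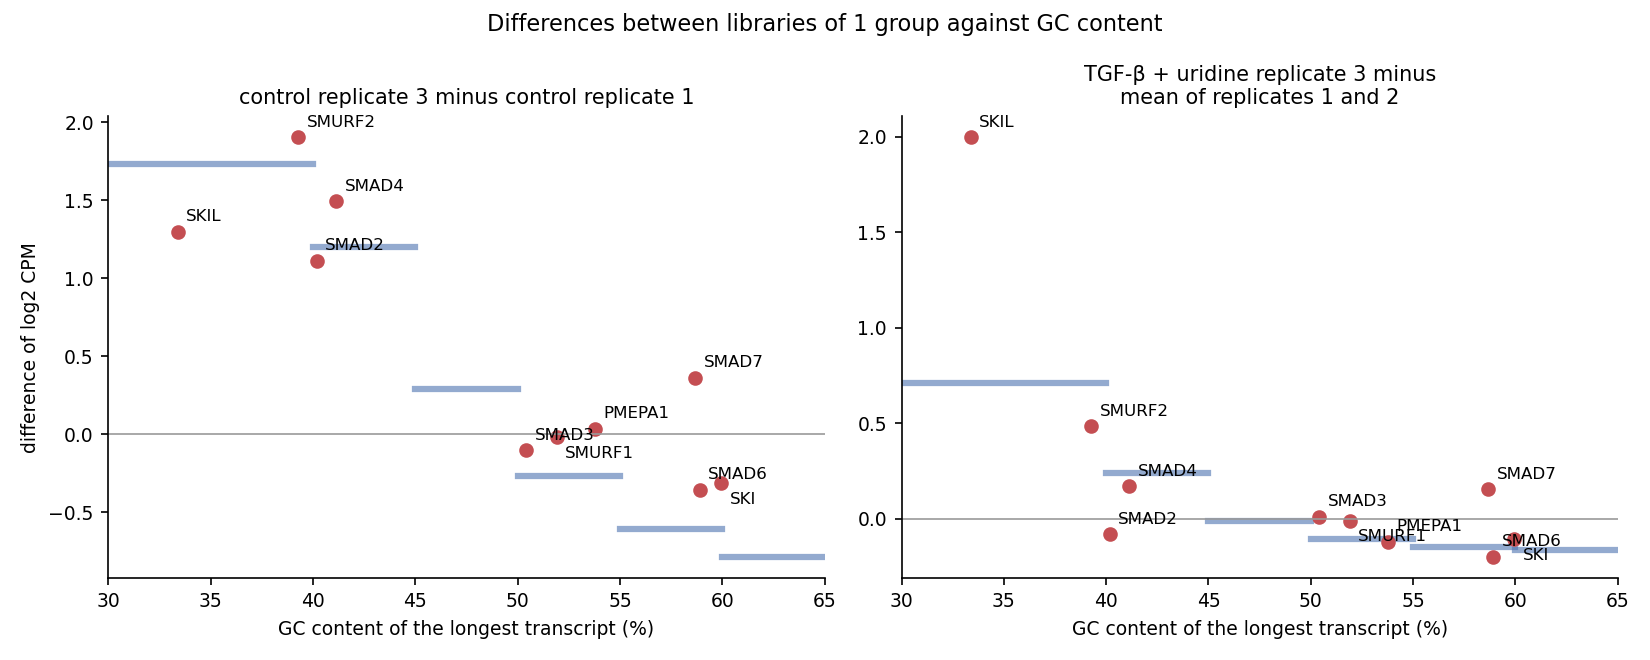
Difference of log2 CPM between libraries of 1 group (y axis) against GC content of the longest transcript in percent (x axis), for control replicates 3 and 1 (left) and for TGF-β + uridine replicate 3 against replicates 1 and 2 (right). Points are the 10 genes and horizontal bars are medians of all tested genes in a GC range, with the outer bars standing for all genes up to 40% and above 60%. SMURF2, SMAD4, SKIL and SMAD2 are at the high end on the left, and SKIL stands alone on the right.

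With the GC slope of each library as a covariate, an analysis chosen after seeing the data, the values of the members above 50% GC hardly moved while their adjusted p-values fell. SMAD7 with TGF-β was then at 0.76 (adjusted p = 7.0e-04 by edgeR), SMAD3 at -0.44 (adjusted p = 0.0012) and SMURF1 at 0.27 (adjusted p = 0.0091), all called. With both agents it also called SMURF1 at 0.31 (adjusted p = 0.0024) and SKIL at 1.24 (adjusted p = 0.016, both by edgeR). The covariate was not fitted without TGF-β + uridine replicate 3, in which SKIL was high. With the covariate, the fit also called 2715 of 13384 tested genes with TGF-β, against 453 without it. With both agents it called 4162, against 714 without it.

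Around the members, the other genes of the pathway were read from 7 lists. These lists were chosen with earlier results of these data known, so their counts of calls are a description and no independent test. Among targets of SMAD3 and SMAD4, 11 of 16 tested genes rose with TGF-β and none fell, beside 2.42% and 0.964% of all tested genes. Among them were TGFBI, a matrix protein gene (7.16-fold, adjusted p = 3.5e-06 by edgeR), and CDKN2B, a cell cycle inhibitor (4.98-fold, adjusted p = 7.4e-05 by edgeR). With both agents 15 of the 16 rose, beside 2.89% of all genes, and 1 fell, TSC22D1, by 0.65 on the log2 scale (adjusted p = 0.0055 by edgeR). With uridine added to TGF-β none of the 16 was called by edgeR. TGFBI then had a fold of 0.745 (95% interval of the log2 fold change -0.65 to -0.19, unadjusted p = 0.0024, adjusted p = 0.26 by edgeR) and CDKN2B of 0.604 (-1.05 to -0.40, unadjusted p = 6.5e-04, adjusted p = 0.17 by edgeR). The median log2 fold change of this list was 1.51 with TGF-β and -0.19 for uridine, beside -0.05 and 0.02 for all genes. For uridine, COL1A1, CDKN1A, IL11, SNAI1 and SNAI2 had positive log2 fold changes, from 0.05 to 0.36, and the other tested targets had negative ones. The stellate and fibroblast markers, of which ACTA2, TAGLN and COL1A1 are also targets, summed to 1325 to 1644 CPM in the control, 2428 to 2529 CPM in the TGF-β and 2053 to 2416 CPM in the TGF-β + uridine libraries, so that the groups did not overlap. VIM made up most of this sum, at 1832 ± 28.5 CPM with TGF-β and 1601 ± 128 CPM with both agents (n = 3 each). In the same order THY1 stood at 333.0 and 336.4 CPM, COL1A1 at 63.4 and 66.2 CPM and COL3A1 at 1.66 and 1.86 CPM. Lower means with both agents included those of ACTA2 (29.8 and 20.8 CPM), TAGLN (157.6 and 152.0 CPM), PDGFRB (28.3 and 26.7 CPM) and DES (18.9 and 15.7 CPM). The part of these summed levels in the values of the members was not tested.

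Among 11 other inhibitors of the pathway, VASN, which encodes a TGF-β-binding membrane protein, rose 2.57-fold with TGF-β (adjusted p = 3.4e-04 by edgeR) and 2.52-fold with both agents (adjusted p = 3.8e-04), and it alone of the list was called. LDLRAD4, a homologue of PMEPA1 that also sequesters SMADs, had 9 to 46 counts in the control and 49 to 84 with TGF-β, and its log2 fold change of 1.44 was not called (SE 0.46, adjusted p = 0.18 by edgeR). Among 16 ligases, deubiquitinases and phosphatases, CTDSP2, a SMAD phosphatase gene, fell with TGF-β by 0.50 on the log2 scale (adjusted p = 0.036) and with both agents by 0.69 (adjusted p = 0.0069, both by edgeR). None of 11 tested receptors and none of 14 nuclear partners and corepressors was called in any of the 3 comparisons. At the shares of all genes called, 2.42% higher and 0.964% lower with TGF-β, lists of this size would hold few or no calls, and nothing is read from their absence.

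Of the SMADs of the BMP branch, SMAD1 had a log2 fold change of -0.54 with TGF-β (SE 0.34, adjusted p = 0.70 by edgeR) and SMAD5 of -0.15 (SE 0.52, adjusted p = 1.00). SMAD9 did not pass the filter, with 0 to 10 counts in the control group and at most 4 in the treated groups. Among 6 tested targets of SMAD1 and SMAD5, 1 was called with TGF-β, beside 0.964% of all genes lower. This was ATOH8, a transcription factor gene, which fell by 2.77 on the log2 scale with TGF-β (adjusted p = 0.0012 by edgeR) and by 1.94 with both agents (adjusted p = 0.0057). Its level was 3.55 ± 1.04 CPM in the control, 0.517 ± 0.0733 in the TGF-β and 0.921 ± 0.082 in the TGF-β + uridine group (n = 3 each).

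The genes most like PMEPA1 across the 9 libraries, by Pearson's r of log2 CPM, were KANK4 (0.999), SLC12A8 (0.997), NKAIN4 (0.996), CLDN14-AS1 (0.995) and SPOCD1 (0.995). For SMAD7 they were VEGFA (0.983), TRIM6 (0.972), TNC (0.969), CYP26B1 (0.966) and SULF2 (0.965). These are descriptions over 9 libraries of 3 groups, in which any gene with the same order of groups scores high.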

How the data were processed

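Total RNA of 9 LX-2 libraries was sequenced with a VAHTS kit, and the labels' processing notes name fastp, HISAT2, HTSeq, R 3.2.0 and the build GRCh38.p13. The authors deposited whole-number read counts per gene symbol, not normalised, and FPKM values, which are the same counts scaled by library size and by 1 length per gene. The main test was the two-sided quasi-likelihood test of edgeR 4.0.16 under R 4.3.3 (TMM factors, filterByExpr) in 1 model of the 3 groups, with Benjamini-Hochberg adjustment over 13384 tested genes of 20777. Comparisons that share libraries are not independent. Standard errors and 95% intervals come from this fit. Single values were compared by exact permutation tests, which for 3 against 3 cannot give a p below 0.1. Coordinates, GC content and transcript lengths come from GENCODE 29 (GRCh38), and GC content was matched for 92% of tested genes. Promoter sequences come from RefSeq.

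The members, lists and tests were chosen with earlier results of these data known. All 10 members are named. From each list the text names the 3 called genes with the smallest p in the TGF-β comparison, any gene called for uridine, and SMAD1, SMAD5, SMAD9 and LDLRAD4. The values of 1 such gene are not reported here. NKILA, TRRAP, CEP95, TSC22D1, CDKN1A, IL11, SNAI1, SNAI2, NEAT1 and the cell markers named (VIM, THY1, COL1A2, HAND2, KRT8, KRT18, KRT19, EPCAM, CDH1, ACTA2, TAGLN, COL1A1, COL3A1, PDGFRB and DES) fall outside this rule and were picked with their values in view, as were the FPKM ratios. The alternatives were DESeq2 1.42.0, RLE and upper-quartile factors, no filter, at least 10 counts in every library, a replicate block, a model of just the compared pair of groups, limma-trend (3.58.1) after adding 1 or 0.1 to FPKM and taking log2, either above a mean FPKM of 0.5 or, with 1 added, for every listed gene, and leaving out each library. A GC slope covariate, alone and with the block, and leaving out control replicate 1 with TGF-β + uridine replicate 3 were added after seeing the data. The edgeR test was first tested on simulated data with large changes and no GC trend between libraries. That run does not bear on small changes such as those of SMAD7 and SMAD3.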

Additional observations from a re-analysis of the deposited data

How the results depend on the processing

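PMEPA1 kept its direction and call against control in all 22 alternatives, and no alternative called a member for uridine added to TGF-β. Members called with TGF-β numbered 1, beside 453 of 13384 tested genes. DESeq2 called 3, beside 719 of 20777 genes. The GC slope covariate gave 4 (2715 of 13384 genes), and the covariate with the replicate block gave 4 (2340 of 13384). When 1 library was left out, 1 to 2 members were called. With the covariate the calls over all genes thus rose as well. With both agents 3 members were called, beside 714 of 13384 tested genes. With only the 2 groups compared 1 was called (222 of 13088 genes), and 1 by limma on log2(FPKM + 1) of all listed genes (1364 of 20777). The GC slope covariate gave 5 (4162 of 13384), and covariate and block gave 5 (3756 of 13384). When 1 library was left out, 1 to 3 members were called.

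Counts over all genes moved more. With TGF-β 453 genes were called, against 719 by DESeq2, 229 with only the 2 groups compared, 803, 793 and 796 by limma on log2(FPKM + 1), log2(FPKM + 0.1) and all listed genes, 2715 with the GC slope covariate, 2340 with covariate and block, 1289 with control replicate 1 and TGF-β + uridine replicate 3 both left out, and 218 to 1085 when 1 library was left out (1085 without control replicate 1). With both agents 714 were called, and in the same order 1103, 222, 1421, 1402, 1364, 4162, 3756 and 2915, with 304 to 2413 when 1 library was left out (2413 without control replicate 1). For uridine 6 were called, and in the same order 117, 317, 385, 378, 295, 2554, 2072 and 124, with 0 to 271 when 1 library was left out (271 without control replicate 1). Upper-quartile factors gave 10 for uridine. The share of uridine calls that were higher was 0% in the main analysis, 20% with upper-quartile factors, 38.5% by DESeq2, 44.5% with only the 2 groups compared, 67.3% by limma on log2(FPKM + 1) and 52.3% with the GC slope covariate. The causes were not tested.

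Deviations of same-numbered libraries from their group means correlated at -0.21 to 0.558, which gave no steady pairing by replicate number. The highest value was that of control replicate 3 with TGF-β + uridine replicate 3, which both had low GC slopes (0.0408 and 0.0549). Such shared trends enter these correlations, so the check cannot decide whether the libraries were paired. With the replicate block 437 genes were called with both agents and 0 for uridine, the latter with 1001 genes at an unadjusted p under 0.05, and SMAD3 with both agents had an adjusted p of 0.11 (edgeR).

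Some values that were not called changed sign. With TGF-β, SMAD6 was 0.0007 with the replicate block, 0.0088 with the GC slope covariate, 0.0056 with both and 0.0827 with the 2 libraries left out together, which also gave -0.20 for SMAD4, and SKI was -0.0015 with RLE factors. With both agents SMAD4 was -0.0027 with only the 2 groups compared and -0.3646 with the 2 libraries left out. For uridine SMAD2 was 0.0003 by limma on log2(FPKM + 1) with either filter, SMURF2 -0.0223 with the GC slope covariate and -0.1223 with the 2 libraries left out, and SKIL -0.1204 with these left out. When 1 library was left out, values with TGF-β ran from -0.3461 to 0.1460 for SMAD2, -0.2051 to 0.4598 for SMAD4, -0.0946 to 0.0787 for SMAD6, -0.0697 to 0.0835 for SKI and -0.6241 to 0.4234 for SMURF2. With both agents they ran from -0.3962 to 0.1106 for SMAD2, -0.3310 to 0.3493 for SMAD4, -0.0337 to 0.1243 for SMAD6, -0.0302 to 0.1078 for SKI and -0.5837 to 0.4791 for SMURF2. For uridine they ran from -0.1572 to 0.0471 for SMAD2, -0.1201 to 0.0024 for SMAD3, -0.0058 to 0.0876 for SKI, -0.1224 to 1.2266 for SKIL and -0.1505 to 0.1972 for SMURF2. SKIL at 33 to 411 counts and SMURF2 at 55 to 297 were the members with the least depth.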
